A study of Mus musculus with 8 samples.

Results

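The voltage-gated sodium and calcium channel genes described here are the protein-coding genes whose symbols begin with Scn and a digit, or with Cacna, Cacnb or Cacng. The rule was applied to the deposited table of all genes and found 40 members among 54532 genes, of which 22046 were protein-coding. It used names only, not expression values. RNA from hippocampal tissue of adult mice was sequenced in 8 libraries, 4 from mice labelled Kat6a+/- and 4 from mice labelled WT. Kat6a encodes a histone acetyltransferase, and the label Kat6a+/- stands for mice with 1 intact copy of it; no Cre driver, treatment or other allele is named. The labels give no strain, sex or exact age and do not say whether each library is 1 animal, so that the p-values here measure the spread between libraries, which may be technical. The series names RSPO2 and Wnt signaling in hippocampal CA3 as its subject, and the channel genes were measured as part of the whole transcriptome.

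Voltage-gated sodium channels open rapidly on depolarization and carry the upstroke of the action potential; each has 1 large pore-forming alpha subunit, such as the products of Scn1a, Scn2a, Scn3a and Scn8a, and smaller beta subunits, such as those of Scn2b, Scn3b and Scn4b. Voltage-gated calcium channels turn depolarization into calcium entry that drives transmitter release, dendritic signalling and gene expression. Their pores are the Cacna1 proteins, which assemble with extracellular alpha2delta subunits (Cacna2d) and cytoplasmic beta subunits (Cacnb). The Cacng family is named for a muscle calcium channel gamma subunit, but most of its brain members are TARPs, transmembrane proteins that carry AMPA-type glutamate receptors to the synapse.

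Values are FPKM, fragment counts scaled to transcript length and sequencing depth as the authors deposited them, a scale on which genes of different length can be compared. Library totals were between 17730609 and 27875310 reads in the Kat6a+/- libraries and between 16462428 and 22047643 reads in the WT libraries. The targeted gene was lower where the labels place the mutation: Kat6a stood at 6.06, 7.64, 7.32 and 7.06 FPKM in Kat6a+/- replicates 1 to 4, against 9.35, 8.97, 8.55 and 9.71 FPKM in WT replicates 1 to 4. The Kat6a+/- mean was 76.7% of the WT mean, and the groups did not overlap (exact two-sided permutation p = 0.0286, the smallest that 4 against 4 libraries allow). In the limma fit described below, the log2 fold change of Kat6a was -0.36 ± 0.07 (SE), with an adjusted p of 0.9998. Of all genes tested there, 2.62% did not overlap between the genotypes. The neuronal genes Snap25 (285 ± 12.5 FPKM in Kat6a+/- and 275 ± 13.5 FPKM in WT, SD, n = 4 each) and Slc17a7 (322 ± 20.5 FPKM in Kat6a+/- and 312 ± 14.6 FPKM in WT) were abundant.

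Of the 40 channel genes, 30 averaged 0.5 FPKM or more and were tested, and 10 lay under that minimum. No channel gene passed an adjusted p of 0.05 in limma, and neither did any of the 14159 genes tested (0 of 14159, 0%). At an unadjusted p under 0.05, 1 of the 30 channel genes (Cacna1h, higher in Kat6a+/-) was counted, against 624 genes or 4.41% of all tested in either direction and 1.78% in that direction. With edgeR, DESeq2 and limma-voom on read counts the channel genes called were also 0, and Cacna1h was again the 1 member at an unadjusted p under 0.05 in each. Over all tested genes these tools called 0, 5 (0.0353%) and 0 genes, and had 4.35%, 3.3% and 4.24% of genes at an unadjusted p under 0.05. The genotypes did not overlap for 1 of the 30 members (Scn3a, higher in Kat6a+/-), against 2.62% of all tested genes in either direction and 1.09% in that direction. On the log2(FPKM + 0.5) scale 19 members lay higher and 11 lower in Kat6a+/-, with a median log2 fold change of 0.02. With 1 library left out that median ran from 0.00353 (without Kat6a+/- replicate 4) to 0.0681 (without Kat6a+/- replicate 1). Among all tested genes 50.6% lay above 0 and the median was 0.00. In bulk tissue fewer cells of a type and less RNA per cell cannot be told apart, and this holds for every difference given here.

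**Figure D1:**
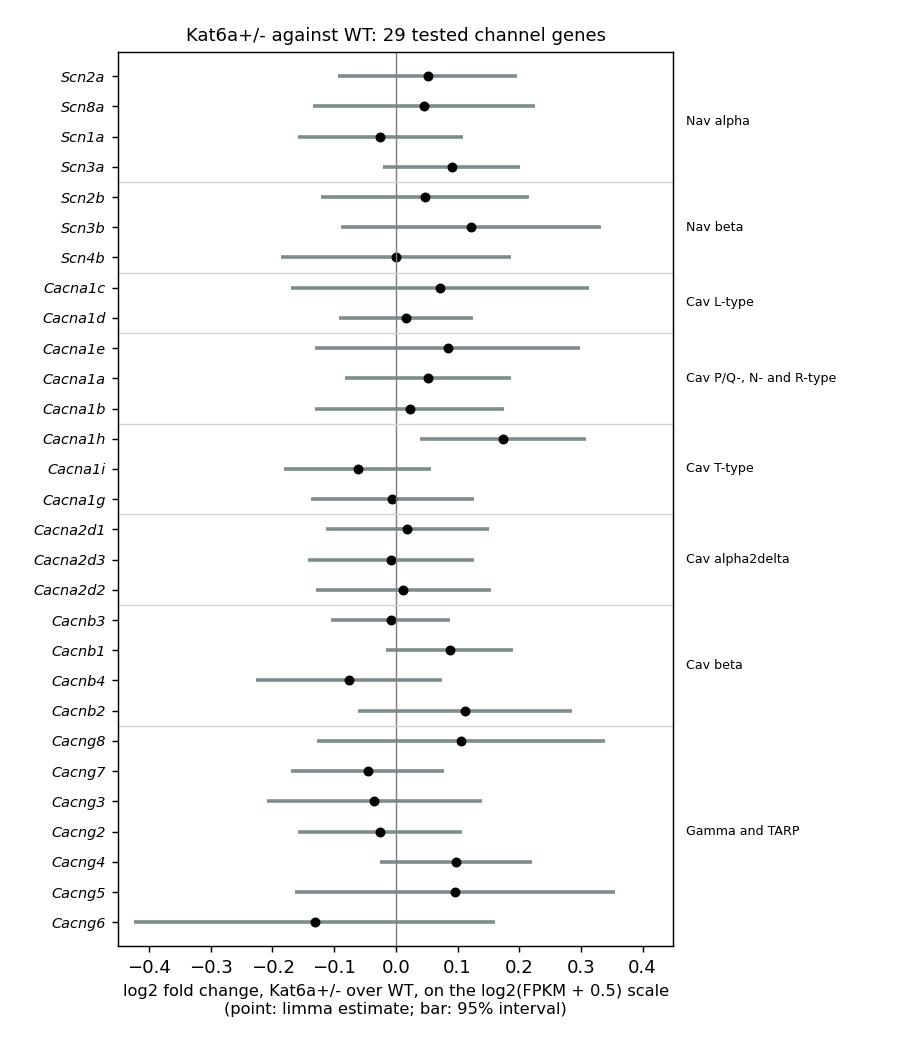
Log2 fold change of Kat6a+/- over WT for 29 tested channel genes, with points for the limma estimate and bars for its 95% interval, grouped by subunit. The interval of Cacna1h (0.04 to 0.31) is the only one of these 29 that leaves out 0, before adjustment for 14159 genes.

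The sodium channel alpha subunits were carried almost wholly by 4 genes. Scn2a, the channel of excitatory axons and of the axon initial segment, had 31.7, 36.9, 39.3 and 38.4 FPKM in Kat6a+/- replicates 1 to 4, against 34.4, 34.3, 35.5 and 36.6 FPKM in WT replicates 1 to 4. Kat6a+/- replicate 1 was the lowest of all 8 libraries and the other 3 Kat6a+/- libraries were the highest, so that the groups overlapped through 1 library (log2 fold change 0.05, 95% interval -0.09 to 0.20). Leaving out Kat6a+/- replicate 1 removes this overlap by construction. Scn2a then had an unadjusted limma p under 0.05, which rests on leaving out its lowest library, with an adjusted p still above it. Scn8a, the channel of mature initial segments and nodes of Ranvier, averaged 34.5 ± 3.57 FPKM in Kat6a+/- and 33.4 ± 2.73 FPKM in WT. Scn1a, which is needed above all by fast-spiking inhibitory interneurons, averaged 12.4 ± 1.02 FPKM in Kat6a+/- and 12.6 ± 0.412 FPKM in WT. Scn2a made up 40.6 ± 1.50% of the summed FPKM of the 10 alpha subunit genes in Kat6a+/- and 40.3 ± 1.06% in WT, and Scn8a 38.3 ± 1.33% in Kat6a+/- and 38.2 ± 1.84% in WT. Scn2a lay above Scn8a in 7 of the 8 libraries, but their ranges overlapped, so these neighbours are not ranked firmly. Scn1a held 13.8% of the sum in Kat6a+/- and 14.4% in WT, and Scn3a 6.17% in Kat6a+/- and 5.92% in WT.

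Scn3a, the alpha subunit best known from the embryonic and newborn brain, was the member whose groups did not overlap. It had 5.41, 5.65, 5.66 and 5.40 FPKM in Kat6a+/- replicates 1 to 4, against 5.23, 5.26, 4.81 and 5.36 FPKM in WT replicates 1 to 4. All 4 Kat6a+/- values exceeded all 4 WT values, but the closest pair (5.40 FPKM in Kat6a+/- replicate 4 and 5.36 FPKM in WT replicate 4) was nearer than the spread within either group. The means were 5.53 ± 0.144 FPKM in Kat6a+/- and 5.16 ± 0.244 FPKM in WT, or 107% of WT, and the log2 fold change was 0.09 ± 0.05 (SE; 95% interval -0.02 to 0.20). The exact permutation p was 0.0286, the smallest possible with 4 against 4, while limma gave an unadjusted p of 0.0979 and an adjusted p of 0.9998. When FPKM were rescaled to library totals, Scn3a overlapped between the groups and Cacng4 did not. The ratio of Scn3a to Scn1a was 0.449 ± 0.040 in Kat6a+/- and 0.411 ± 0.032 in WT (exact two-sided permutation p = 0.200).

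Other alpha subunit genes were under the minimum. Scn7a, which encodes a sodium-sensing channel of glia, averaged 0.461 ± 0.162 FPKM in Kat6a+/- and 0.446 ± 0.145 FPKM in WT. Scn9a, a channel of peripheral sensory and sympathetic neurons, averaged 0.200 ± 0.0332 FPKM in Kat6a+/- and 0.193 ± 0.0305 FPKM in WT. The skeletal muscle gene Scn4a had 7 reads in Kat6a+/- and 6 in WT. Scn11a had 3 reads in Kat6a+/- and 1 in WT, and Scn10a had 1 read in Kat6a+/- and 0 in WT, both being genes of nociceptive sensory neurons. Scn10a was at 0 in 7 libraries, and a count of 0 allows up to 3 reads per library, or 0.0131 to 0.0228 FPKM, for counting error only.

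**Figure D2:**
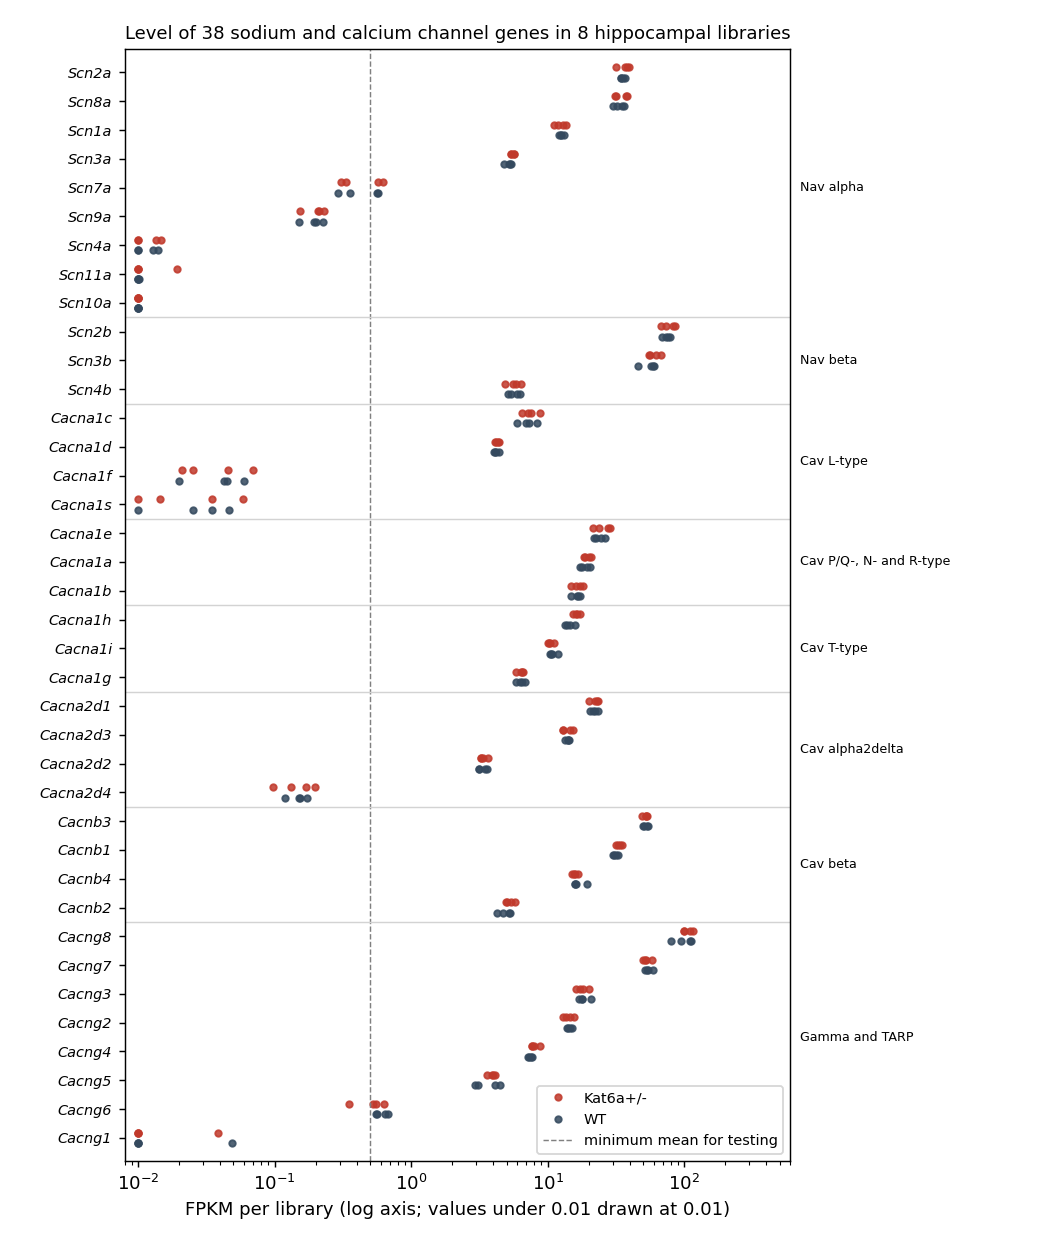
FPKM of 38 channel genes in each library on a log axis, Kat6a+/- above WT within each gene, grouped by subunit, with a dashed line at the minimum mean of 0.5 FPKM. Of these genes Cacng8 lies highest, at 80.0 to 115 FPKM, Scn10a is at 0 in 7 libraries, and the genotypes of the tested Scn3a do not overlap.

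Neighbouring genes of the same family stood at very different levels. Scn3a, Scn2a, Scn1a, Scn9a and Scn7a lie within chr2:65457118-66784914 (GRCm38), and their mean over 8 libraries ran from 35.9 FPKM for Scn2a to 0.197 FPKM for Scn9a. The upstream sequence of 3 members is shown because their levels and base composition differ widely: Scn2a and Cacna2d1 are abundant channel genes with a CG-poor and a CG-rich start, and Scn11a is all but undetected. The 250 bases before each start site (RefSeq, GRCm38.p6) are at chr2:65620519-65620768 on the plus strand for Scn2a, chr5:15934441-15934690 on the plus strand for Cacna2d1 and chr9:119825457-119825706 on the minus strand for Scn11a. They are written 5′ to 3′, and capitals mark CG dinucleotides.
Scn2a: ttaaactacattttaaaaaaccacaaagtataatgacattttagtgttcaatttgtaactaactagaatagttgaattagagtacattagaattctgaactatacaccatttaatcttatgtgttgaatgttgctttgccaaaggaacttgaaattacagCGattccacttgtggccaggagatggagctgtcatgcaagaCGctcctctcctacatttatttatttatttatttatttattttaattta
Cacna2d1: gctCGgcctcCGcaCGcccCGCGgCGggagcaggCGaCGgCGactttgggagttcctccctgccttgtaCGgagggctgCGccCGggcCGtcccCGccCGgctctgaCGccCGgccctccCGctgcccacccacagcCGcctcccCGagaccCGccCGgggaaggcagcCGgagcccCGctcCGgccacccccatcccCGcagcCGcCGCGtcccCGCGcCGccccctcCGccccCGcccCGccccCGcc
Scn11a: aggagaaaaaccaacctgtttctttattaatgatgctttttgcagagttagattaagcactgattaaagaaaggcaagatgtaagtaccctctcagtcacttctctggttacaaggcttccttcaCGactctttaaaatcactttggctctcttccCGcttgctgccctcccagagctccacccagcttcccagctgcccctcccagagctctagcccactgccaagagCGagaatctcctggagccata
The Scn2a stretch holds 2 CG dinucleotides at 29.6% G or C, the Cacna2d1 stretch 36 at 82.4%, and the Scn11a stretch 3 at 48.0%. RefSeq promoter windows of 300 bases were matched for 30 of the 40 members, and 19 of them began within 300 bases of the gene start in the deposited table. In these 19 the 13 tested genes had a median of 17 CG dinucleotides (2 to 43) and the 6 untested genes a median of 7 (3 to 11), against a median of 7 over 32851 windows of all genes. The letters TATAAA, on either strand, were found in 1 of the 19 windows (Cacna1d), against 13.6% of all windows. These are descriptions of the windows and say nothing of binding.

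The beta subunits of sodium channels shape gating and cell adhesion. Scn2b had 67.9, 73.3, 85.4 and 82.7 FPKM in Kat6a+/- replicates 1 to 4, against 68.9, 73.6, 76.8 and 79.2 FPKM in WT replicates 1 to 4, so that the WT range lay inside the Kat6a+/- range (log2 fold change 0.05, 95% interval -0.12 to 0.22). Scn2b, which is linked to the alpha subunit by a disulfide bond, averaged 77.3 ± 8.17 FPKM in Kat6a+/- and 74.6 ± 4.42 FPKM in WT. Scn3b averaged 60.4 ± 5.79 FPKM in Kat6a+/- and 55.7 ± 6.69 FPKM in WT, and its interval of -0.09 to 0.33 (log2) was among the wider ones. Scn4b, whose protein can block the open pore and so allow resurgent current, averaged 5.70 ± 0.606 FPKM in Kat6a+/- and 5.69 ± 0.509 FPKM in WT. Scn4b and Scn2b are neighbours at chr9:45117782-45154152, and the ratio of Scn4b to Scn2b was 0.074 in Kat6a+/- and 0.076 in WT.

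Among calcium channel pores the genes of the P/Q-, N- and R-types, which serve transmitter release and dendritic calcium entry, led. Cacna1e, the R-type pore, had 21.4, 23.7, 27.8 and 28.7 FPKM in Kat6a+/- replicates 1 to 4, against 21.7, 24.6, 22.6 and 26.2 FPKM in WT replicates 1 to 4. Kat6a+/- replicates 3 and 4 were the highest and Kat6a+/- replicate 1 the lowest of the 8, so that the WT range lay inside the Kat6a+/- range (log2 fold change 0.08, interval -0.13 to 0.30). Cacna1a, the P/Q-type pore, averaged 19.5 ± 1.04 FPKM in Kat6a+/- and 18.8 ± 1.39 FPKM in WT. Its exons share 435 of 11418 bases (3.81%) with the antisense gene Gm16183. The strand used in counting is not given in the sources used here, so reads of the pair cannot be told apart in those bases. The same limit holds for other tested members that share exon bases with a gene on the opposite strand. Among them are Cacnb4 (16.0%, A430018G15Rik), Cacng2 (5.86%, A730060N03Rik), Cacnb2 (4.67%, Gm10849) and Cacna1d (4.67%, Chdh). Cacna1a lies 61.4 Mb from Kat6a on the same chromosome. Cacna1b, the N-type pore, averaged 16.6 ± 1.44 FPKM in Kat6a+/- and 16.4 ± 1.03 FPKM in WT. Cacna1a exceeded Cacna1b in 8 of 8 libraries, with a ratio of 1.18 in Kat6a+/- and 1.15 in WT (exact two-sided permutation p = 0.657), but their ranges overlapped, as did those of Cacna1b and Cacna1h.

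L-type pores, which couple depolarization to gene expression, were lower. Cacna1c had 6.49, 7.20, 7.60 and 8.76 FPKM in Kat6a+/- replicates 1 to 4, against 5.92, 7.32, 6.91 and 8.40 FPKM in WT replicates 1 to 4. The libraries of each genotype spread over about the same range (log2 fold change 0.07, interval -0.17 to 0.31). Cacna1d averaged 4.25 ± 0.138 FPKM in Kat6a+/- and 4.20 ± 0.131 FPKM in WT, and its coefficient of variation over the 8 libraries, 3.02%, was the lowest of the 30 tested members. The retinal gene Cacna1f had 31 reads in Kat6a+/- and 30 in WT, and the skeletal muscle gene Cacna1s 18 in Kat6a+/- and 14 in WT.

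Cacna1h, a T-type pore that opens near the resting potential, had the smallest limma p of the channel genes. It had 17.3, 15.4, 16.2 and 16.4 FPKM in Kat6a+/- replicates 1 to 4, against 13.3, 16.0, 13.9 and 14.6 FPKM in WT replicates 1 to 4. The groups overlapped through 1 pair, since Kat6a+/- replicate 2 lay under WT replicate 2, and the other values were separate. The means were 16.3 ± 0.760 FPKM in Kat6a+/- and 14.4 ± 1.14 FPKM in WT, or 113% of WT, from 2573 to 4857 reads per library. The log2 fold change was 0.17 ± 0.06 (SE; interval 0.04 to 0.31), with a limma p of 0.0166, an adjusted p of 0.9998 and an exact two-sided permutation p of 0.0571. On read counts the unadjusted p was 0.00746 in edgeR and 0.00463 in DESeq2, and it ranked 208 of 14159 in limma. Cacna1h is the 1 channel gene among 605 of 54532 genes in the authors' deposited comparison, which used the same libraries. By the authors' own test it had a log2 fold change of 0.18, a p of 0.00508 and an adjusted p of 0.9998. It lies at chr17:25374285-25433783 on the minus strand (ENSMUSG00000024112), and 158 of its 9763 exon bases (1.62%) are shared with Tpsg1 on the opposite strand, which reached at most 0.293 FPKM. The other T-type pores did not lie the same way: Cacna1i averaged 10.4 ± 0.440 FPKM in Kat6a+/- and 10.9 ± 0.669 FPKM in WT, and Cacna1g 6.30 ± 0.330 FPKM in Kat6a+/- and 6.34 ± 0.409 FPKM in WT. Of the summed FPKM of the 10 calcium channel pores, Cacna1h made up 15.4% in Kat6a+/- and 14.1% in WT, Cacna1e 23.8% in Kat6a+/- and 23.3% in WT, and Cacna1i 9.84% in Kat6a+/- and 10.7% in WT.

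**Figure D3:**
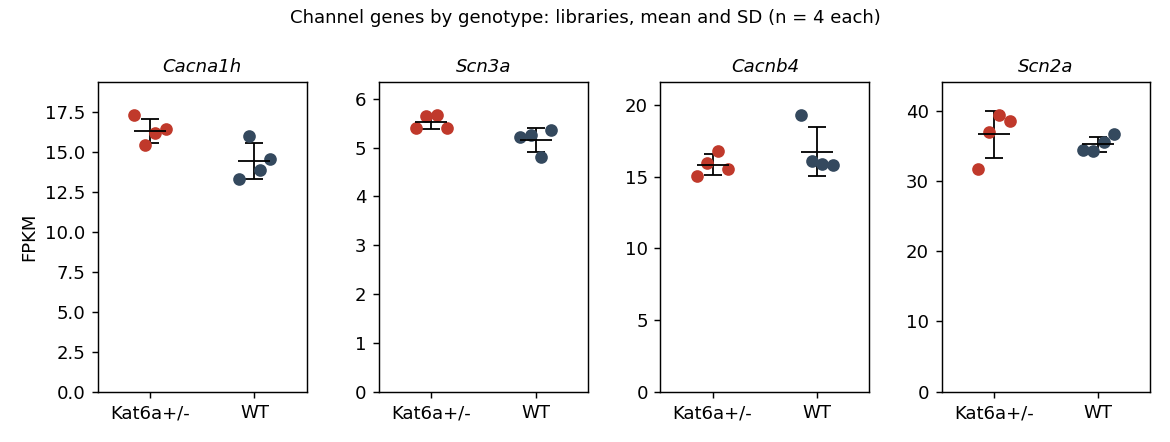
FPKM of Cacna1h, Scn3a, Cacnb4 and Scn2a in each Kat6a+/- library (left) and WT library (right), with the mean and SD (n = 4 each). Scn3a separates the genotypes, Cacna1h overlaps through 1 pair of libraries, WT replicate 1 stands above the rest for Cacnb4, and Kat6a+/- replicate 1 is the lowest for Scn2a.

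The alpha2delta subunits bring the pores to the membrane, and 2 of them, Cacna2d1 and Cacna2d2, bind gabapentin. Cacna2d1 had 20.0, 22.1, 23.5 and 22.9 FPKM in Kat6a+/- replicates 1 to 4, against 20.5, 22.3, 21.4 and 23.2 FPKM in WT replicates 1 to 4. The groups overlapped (log2 fold change 0.02, interval -0.11 to 0.15). It made up 55.8% of the summed alpha2delta FPKM in Kat6a+/- and 55.4% in WT. Cacna2d3 averaged 14.0 ± 1.20 FPKM in Kat6a+/- and 14.0 ± 0.382 FPKM in WT, and Cacna2d2 3.37 ± 0.189 FPKM in Kat6a+/- and 3.34 ± 0.233 FPKM in WT. Cacna2d4, known for its role in photoreceptors, stayed under the minimum at 0.149 ± 0.0442 FPKM in Kat6a+/- and 0.149 ± 0.0217 FPKM in WT.

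The cytoplasmic beta subunits modulate gating and surface expression of the pores. Cacnb3 had 52.3, 49.1, 52.2 and 53.5 FPKM in Kat6a+/- replicates 1 to 4, against 50.2, 53.2, 50.6 and 54.3 FPKM in WT replicates 1 to 4. These 8 values varied by only 3.45% (coefficient of variation), and the interval of the log2 fold change was -0.10 to 0.09. Cacnb1 averaged 33.3 ± 1.61 FPKM in Kat6a+/- and 31.3 ± 1.06 FPKM in WT (limma interval of the log2 fold change -0.02 to 0.19). Cacnb4, the subunit mutated in the lethargic mouse, averaged 15.8 ± 0.727 FPKM in Kat6a+/- and 16.8 ± 1.68 FPKM in WT, and the WT value includes 1 library at 19.3 FPKM. Cacnb2 averaged 5.30 ± 0.388 FPKM in Kat6a+/- and 4.88 ± 0.506 FPKM in WT.

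Among the Cacng genes the TARPs of the hippocampus led. Cacng8, the main TARP of hippocampal pyramidal cells, had 100, 99.8, 111 and 115 FPKM in Kat6a+/- replicates 1 to 4, against 80.0, 113, 94.7 and 111 FPKM in WT replicates 1 to 4. WT values spread more widely than Kat6a+/- values and enclosed most of them (log2 fold change 0.11, interval -0.13 to 0.34). Without WT replicate 1, the lowest library, the log2 fold change was 0.005. Cacng8 made up 52.2% of the summed FPKM of the 8 Cacng genes in Kat6a+/- and 49.9% in WT. Cacng7 averaged 52.9 ± 3.39 FPKM in Kat6a+/- and 54.6 ± 2.92 FPKM in WT, Cacng3 17.9 ± 1.61 FPKM in Kat6a+/- and 18.4 ± 1.75 FPKM in WT, and Cacng2, the TARP missing in the stargazer mouse, 14.2 ± 1.15 FPKM in Kat6a+/- and 14.5 ± 0.535 FPKM in WT. Cacng4 averaged 7.99 ± 0.557 FPKM in Kat6a+/- and 7.43 ± 0.244 FPKM in WT (exact two-sided permutation p = 0.0857), and Cacng5 3.88 ± 0.218 FPKM in Kat6a+/- and 3.65 ± 0.754 FPKM in WT. Cacng6, just inside the minimum with 12 to 30 reads per library, averaged 0.514 ± 0.119 FPKM in Kat6a+/- and 0.606 ± 0.0611 FPKM in WT. The muscle gamma subunit Cacng1 had 1 read in each genotype and was at 0 in 6 libraries.

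Of the tested sodium channel genes 6 lay higher and 2 lower in Kat6a+/- (median log2 fold change 0.05), and of the calcium channel genes 13 higher and 9 lower (median 0.02). All 3 genes of the P/Q-, N- and R-types and both tested L-type genes lay higher, the T-type genes lay 1 higher and 2 lower, the calcium channel beta subunits 2 and 2, the alpha2delta subunits 2 and 1, and the Cacng genes 3 and 4. The medians by group ran from -0.03 for the Cacng genes to 0.05 for the sodium channel alpha subunits and for the P/Q-, N- and R-type pores. In 8 ratios between related members, the smallest exact permutation p, for Scn3a to Scn1a, was 0.200 and every adjusted p was at least 0.816. Scn8a to Scn2a gave 0.944 ± 0.062 in Kat6a+/- and 0.949 ± 0.070 in WT, and Cacng8 to Cacng2 gave 7.50 ± 0.377 in Kat6a+/- and 6.88 ± 0.914 in WT.

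The channel genes differed between libraries of the same genotype. The median of the 30 genes, each taken as its log2(FPKM + 0.5) value minus its mean over 8 libraries, was -0.038, -0.031, 0.066 and 0.079 in Kat6a+/- replicates 1 to 4, against -0.053, 0.029, -0.030 and 0.005 in WT replicates 1 to 4. Kat6a+/- replicates 3 and 4 were thus the highest of the 8, while Kat6a+/- replicates 1 and 2 lay among the lowest. Of the 30 genes, 9, 8, 26 and 22 lay above their own mean in Kat6a+/- replicates 1 to 4, against 7, 22, 10 and 16 in WT replicates 1 to 4. The channel genes are long, with a median exon length of 8842 bases against 4090 bases over all tested genes, and 16 of the 30 exceed 8000 bases. Over all 2334 tested genes above 8000 bases the same median was -0.057, -0.002, 0.047 and 0.031 in Kat6a+/- replicates 1 to 4, against -0.031, -0.001, -0.025 and 0.034 in WT replicates 1 to 4. The part of transcript length in the channel values was not tested. The median coefficient of variation over 8 libraries was 6.65% for the channel genes (3.02% to 17.9%) and 8.25% over all tested genes.

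**Figure D4:**
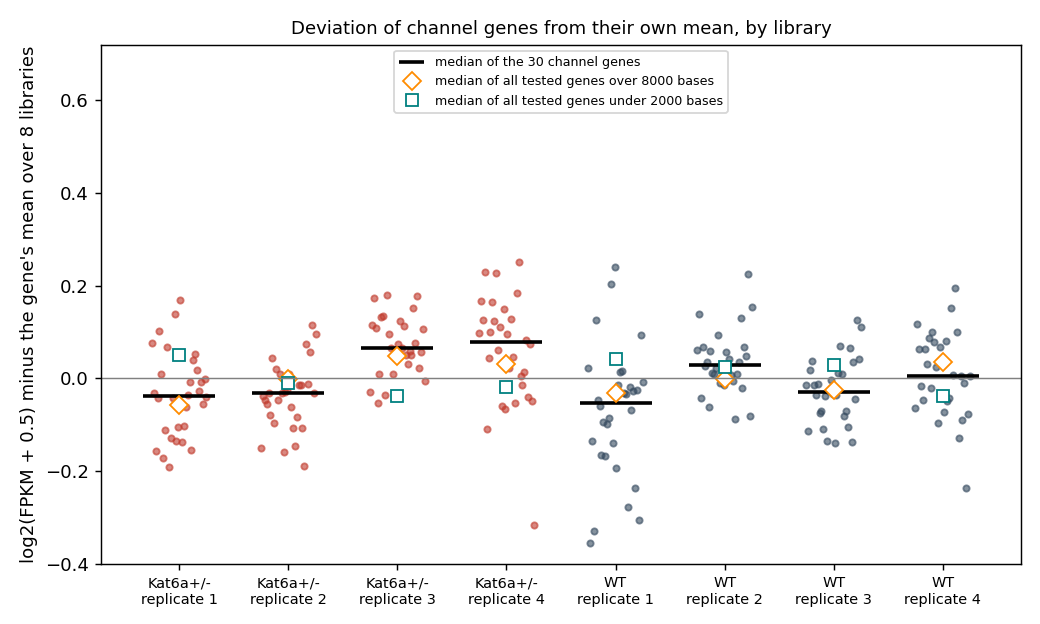
Each point is 1 of the 30 tested channel genes, as log2(FPKM + 0.5) minus that gene's mean over 8 libraries, by library, with the median of the channel genes (line), of all tested genes over 8000 bases (diamond) and under 2000 bases (square). Medians of the channel genes run from -0.053 in WT replicate 1 to 0.079 in Kat6a+/- replicate 4, and libraries of both genotypes lie on either side of 0.

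A wider list of 67 genes that work with these channels was described in the same fit. Of these genes 66 were in the table and 60 were tested. The list was chosen with earlier results of these data known. It held fibroblast growth factor homologous factors, initial segment anchors, the sodium leak channel complex, trafficking partners, AMPA receptor auxiliary proteins, presynaptic anchors, intracellular calcium channels and ion pumps. None of the 60 passed an adjusted p of 0.05 in limma; 45 lay higher and 15 lower in Kat6a+/-, with a median log2 fold change of 0.02, where 50.6% of all tested genes lay higher. An unadjusted limma p under 0.05 was found for 2 of the 60 genes, both higher in Kat6a+/-, against 4.41% of all tested genes in either direction and 1.78% in that direction. The genotypes overlapped for all 60, where 2.62% of all tested genes did not overlap. Slc8a2, a sodium-calcium exchanger of neurons, had 102, 98.9, 106 and 114 FPKM in Kat6a+/- replicates 1 to 4, against 89.2, 107, 89.8 and 93.5 FPKM in WT replicates 1 to 4. WT replicate 2 lay among the Kat6a+/- values, and the log2 fold change was 0.16 (exact permutation p = 0.114; unadjusted limma p = 0.0418). Stac2, an adaptor of L-type channels, averaged 26.0 ± 1.28 FPKM in Kat6a+/- and 24.2 ± 0.612 FPKM in WT (exact permutation p = 0.0571; unadjusted limma p = 0.0453). Among genes lower in Kat6a+/- the smallest p belonged to Atp2b4, a plasma membrane calcium pump, with 5.95 ± 0.590 FPKM in Kat6a+/- and 8.25 ± 3.18 FPKM in WT (log2 fold change -0.38), where 1 WT library stood apart. Next came Atp1b3, a beta subunit of the sodium pump, with 27.7 ± 1.32 FPKM in Kat6a+/- and 30.0 ± 2.13 FPKM in WT (log2 fold change -0.11). By sublist, intracellular calcium channels lay 9 higher and 2 lower, trafficking partners 10 and 1, pumps 10 and 4, and fibroblast growth factor homologous factors 1 and 3.

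Markers of the cells that express these channels were read beside them. The marker lists were chosen with earlier results of these data known, so their counts are no independent result beside the shares over all genes. Of 12 interneuron markers, 1 lay higher and 11 lower in Kat6a+/-, with 5 of the lower ones at an unadjusted limma p under 0.05 (2.63% of all tested genes in that direction) and none at an adjusted p under 0.05. For 4 of the lower ones the genotypes did not overlap (1.53% of all tested genes in that direction), and the summed level of the 12 was 631 to 665 FPKM in Kat6a+/- and 634 to 726 FPKM in WT. Markers on the pan-neuronal list lay 5 higher and 1 lower, with sums of 965 to 1085 FPKM in Kat6a+/- and 942 to 1024 FPKM in WT. That list included Slc17a7, a gene of glutamatergic neurons, at 322 FPKM in Kat6a+/- and 312 FPKM in WT. CA3 markers lay 7 higher and 1 lower (111 to 134 FPKM in Kat6a+/- and 96.3 to 120 FPKM in WT), dentate granule cell markers 7 and 1 (107 to 117 FPKM in Kat6a+/- and 98.4 to 122 FPKM in WT), and CA1 markers 3 and 4 (176 to 197 FPKM in Kat6a+/- and 183 to 198 FPKM in WT). Oligodendrocyte markers lay 8 higher and 0 lower (724 to 914 FPKM in Kat6a+/- and 602 to 876 FPKM in WT), their precursors' markers 3 and 3, and astrocyte markers 1 and 7 (759 to 851 FPKM in Kat6a+/- and 810 to 914 FPKM in WT). For choroid plexus the counts were 4 and 0, with sums of 34.5, 156, 46.5 and 37.7 FPKM in Kat6a+/- replicates 1 to 4 and 28.2 to 41.3 FPKM in WT, so that Kat6a+/- replicate 2 stood apart. The counts were 3 and 4 for microglia, 4 and 2 each for endothelial and mural cells, 1 and 4 for meningeal fibroblasts, and 2 and 3 for thalamus. Dcn stood on both the CA1 and the meningeal fibroblast lists and was counted as lower in each (log2 fold change -0.33). Only 1 of 7 muscle markers was tested, with sums of 2.17 to 3.66 FPKM in Kat6a+/- and 2.12 to 3.35 FPKM in WT, and no listed marker was at 0 in all libraries. At an unadjusted limma p under 0.05 there were also 2 lower CA1 markers, 2 lower astrocyte markers and 1 lower marker each of microglia and endothelial cells. Higher at that level were 2 mural cell markers and 1 marker each of CA3, oligodendrocyte precursors and choroid plexus (1.78% of all tested genes in that direction). The genotypes also did not overlap for 1 lower marker each of astrocytes and endothelial cells. Nor did they overlap for 1 higher marker of oligodendrocyte precursors (1.09% of all tested genes in that direction). The part of cell makeup in the channel values was not tested.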

How the data were processed

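RNA of 4 Kat6a+/- and 4 WT hippocampal libraries was measured by RNA sequencing, grouped by the labelled genotype and replicate. The submitters' processing notes name STAR 2.5, HTSeq, DESeq2 and GRCm38 (mm10), without the annotation or the strand used in counting. The authors deposited FPKM for all 54532 genes, and a table of their own comparison for 605 genes with read counts, normalised signal, log2 fold changes and p-values per the file headers. Reads recovered from FPKM, gene length and a constant per library were whole for 100% of values within 0.01, and 0 deposited counts differed. Totals were 16462428 to 27875310 reads.

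From the FPKM, log2(FPKM + 0.5) was tested with limma 3.58.1 (R 4.3.3; trend, genotype only) for the 14159 genes averaging 0.5 FPKM or more, with Benjamini-Hochberg adjustment over all of them and a threshold of 0.05. Single values had exact two-sided permutation tests over 70 assignments (smallest p 0.0286). Alternatives were pseudocount, minimum, scaling, edgeR 4.0.16, DESeq2 1.42.0 and limma-voom on recovered read counts, a replicate block and each library left out. The main limma fit, edgeR, DESeq2 and limma-voom were also run on simulated reads, and the other alternatives were not. Overlapping exons came from GENCODE M21 on the same build, promoter windows from RefSeq. The members, gene lists and markers were chosen with earlier results of these data known. Values in every library are given for members at an unadjusted p under 0.05, without overlap between genotypes, highest in their subunit group or in the authors' table, and for Kat6a; pathway genes are named by the smallest limma p in each direction. Values of Scn2b and Slc8a2 in every library were added after they were seen. Values of 2 members, which stand in the counts, are not reported here. Limits given for read counts cover counting error only. The intervals of log2 fold changes come from the limma fits and reflect the spread between libraries. The comparison of protein sequences between members was not run.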

Additional observations from a re-analysis of the deposited data

Results flagged for a closer look

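In 86 groups of 4 libraries, 3 had a library far from the other 3 by Dixon's 95% critical value, and chance alone marks about 1 group in 20. Cacnb4 stood at 19.3 FPKM in WT replicate 1, against 15.8 to 16.1 FPKM in the other WT libraries. Atp2b4 stood at 13 FPKM in WT replicate 1, against 6.14 to 7.25 FPKM in the other WT libraries. The ratio of Scn1a to Scn2a was 0.33 in WT replicate 4, against 0.366 to 0.369 in the other WT libraries. WT replicate 1 thus held both of the flagged single-gene values, and it was also the library with the lowest median of the channel genes. The 86 groups did not take in every gene of the wider lists, where further such values can stand. Stim2, for example, had 22.4 FPKM in WT replicate 1, against 29.9 to 30.5 FPKM in the other WT libraries.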

How the results depend on the processing

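No channel gene and no pathway gene passed an adjusted p of 0.05 under any of 19 alternatives. Cacna1h kept an unadjusted p under 0.05 in all of them (0.00291 to 0.0468 with a library left out, 0.00463 to 0.0391 otherwise). The count of members at that level was 1 to 2 with a library left out: Scn2a was added without Kat6a+/- replicate 1 and Cacnb1 without Kat6a+/- replicate 3. The count without overlap was 1 to 3: it was 2 without Kat6a+/- replicate 1, Kat6a+/- replicate 2, WT replicate 2 or WT replicate 4, and 3 without Kat6a+/- replicate 3, where Cacna1i and Cacnb1 joined Scn3a. The shares of all tested genes with a library left out are not given here, so both counts stand without a background. A smaller group also separates more easily by chance. Some log2 fold changes near 0 changed sign. The median of the channel genes moved by over 1.5 times without any one library other than WT replicate 3, within 0.00353 to 0.0681. With a library left out the ranges were -0.03 to 0.02 for Cacnb3, -0.01 to 0.06 for Cacna2d1, -0.0088 to 0.15 for Cacna1c and, without a change of sign, 0.005 to 0.17 for Cacng8, 0.02 to 0.16 for Cacna1e, 0.02 to 0.12 for Scn2a, 0.06 to 0.11 for Scn3a, 0.14 to 0.22 for Cacna1h and -0.50 to -0.16 for Atp2b4. Log2 differences of ratios ranged from -0.042 to 0.041 for Scn8a/Scn2a, -0.01 to 0.057 for Cacna1a/Cacna1b, -0.036 to 0.141 for Cacna1c/Cacna1d, -0.117 to 0.016 for Cacnb4/Cacnb3 and -0.127 to 0.006 for Scn4b/Scn2b. The cause was not tested.

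The replicate numbers did not pair the samples: 1 of 4 same-numbered pairs correlated over 0.1, and 1 Kat6a+/- library correlated best with its own number. With a replicate block the channel genes called stayed at 0, and Cacna1h had a log2 fold change of 0.17 and an unadjusted limma p of 0.0391. The 10 untested members were left out by the minimum of 0.5 FPKM, and with no minimum none of the 40 was called.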

Other observations

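Gm16183, the gene antisense to Cacna1a, was chosen after its values were seen. It had 1.40, 0.681, 1.39 and 1.30 FPKM in Kat6a+/- replicates 1 to 4, against 0.622, 0.609, 0.493 and 0.509 FPKM in WT replicates 1 to 4. All Kat6a+/- libraries lay above all WT libraries, though Kat6a+/- replicate 2 was close to WT replicate 1. Means were 1.19 ± 0.344 FPKM in Kat6a+/- and 0.558 ± 0.0668 FPKM in WT (SD, n = 4 each), from 121 reads in the Kat6a+/- libraries and 51 reads in the WT libraries. The log2 fold change was 0.65 ± 0.16 (SE), with an unadjusted limma p of 0.00243, an adjusted limma p of 0.9998 and an exact permutation p of 0.0286. On read counts the unadjusted p was 0.00187 in edgeR and 0.00233 in DESeq2. Cacna1a itself overlapped between the genotypes.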
